A study of Drosophila melanogaster with 9 samples.

Results

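The baseline transcriptome of Drosophila melanogaster eye imaginal discs was described from the 3 control arrays of a series of 9. Each of the 3 arrays held RNA of one biological replicate of discs dissected from larvae of the third instar, and the members were all 11983 genes that 1 probe set of the Affymetrix Drosophila Genome 2.0 Array names alone. The control genotype is labelled w1118 Gal4. The 6 other arrays held 3 replicates of discs labelled w1118 psc, in which Psc was overexpressed, and 3 of discs mutant for the retinoblastoma gene rbf1, labelled rbf1120a Gal4. The driver behind the Gal4 label is not named, the Psc label carries no Gal4, and no label gives the sex of the larvae or how many discs were pooled, so each comparison between groups is also one between stocks.

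The larval eye disc is an epithelial sac in which a wave of differentiation, the morphogenetic furrow, sweeps from posterior to anterior. Cells ahead of the furrow divide and express the retinal determination genes, the proneural gene ato is switched on in the furrow, and photoreceptors, cone cells and other retinal cells are recruited behind it through Notch, EGF receptor and Sevenless signalling. The dissected disc usually carries the antennal disc, a squamous peripodial layer, glia that migrate in from the optic stalk and muscle precursors or blood cells that adhere to it. Because the RNA came from whole discs, a low level from fewer expressing cells and a low level from less RNA per cell cannot be told apart.

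Each value is a log2 intensity, and a gene with several probe sets was represented by the one with the highest mean over all 9 arrays. Probe sets bind their targets with unequal strength, so the classes below are classes of intensity, and levels of different genes were not compared as amounts of RNA. The bound for background was set at 5.27, the 95th percentile of the control means of 112 odorant and gustatory receptor genes, which belong to sensory neurons that the larval disc does not yet hold. Of the 11983 genes, 3734 (31.2%) had a mean at or below it, 2396 were called high as the 20% with the highest means, and the remaining 5853 (48.8%) were called intermediate. On all 3 control arrays 8035 genes exceeded the bound, on 2 arrays 188, on 1 array 212 and on none 3548. Just below the bound lay PH4alphaNE1 with a mean of 5.27 and just above it CG11475 with 5.27, while ClC-b at 10.698 was the lowest gene called high and loqs at 10.697 the first below it.

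The 3 control arrays were not equally alike. Pearson's r over all genes was 0.991 between control 1 and control 2, 0.986 between control 1 and control 3 and 0.988 between control 2 and control 3, a description over genes that share the same arrays. Pairs of arrays labelled w1118 psc had r between 0.992 and 0.996, and pairs of rbf1 arrays between 0.993 and 0.996. A block of genes read high on control 3 alone and another block read low on control 1 alone, both described further on. With the bound and the level of the high class held, leaving out control 1, 2 or 3 changed the class of 127, 144 or 198 genes (1.06%, 1.20% or 1.65%), and without control 3 the means of 71 genes dropped to background. Among them was CG6933, intermediate only through control 3.

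**Figure D1:**
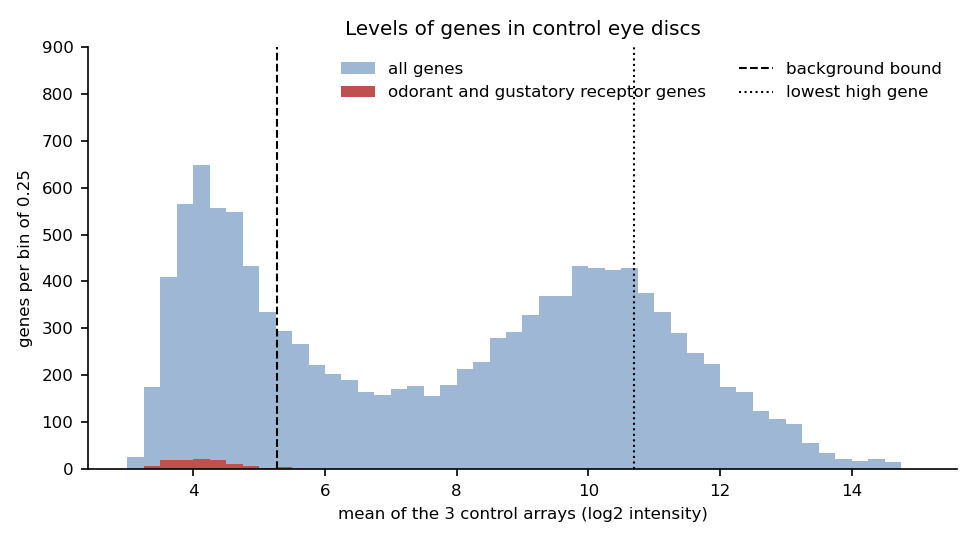
Histogram of the mean log2 intensity of 11983 genes over the 3 control arrays (blue, genes per bin of 0.25 log2 units), with the 112 odorant and gustatory receptor genes in red. The dashed line marks the background bound of 5.27 and the dotted line the lowest gene called high, 10.698. Levels fall into a peak below the bound and a broad second peak that spans the intermediate and high classes. Of the 112 receptors 106 lie at or below the bound, a number fixed by its definition as their 95th percentile.

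The brightest genes were those of protein synthesis. Of the 25 genes with the highest control mean, 17 encode proteins of the cytosolic ribosome and another 3 (RpLP0, RpLP1 and RpLP2) its acidic stalk proteins. RpL41 was first with 14.82 ± 0.01 (SD, n = 3), followed by RpL15 at 14.70 ± 0.00, RpLP1 at 14.69 ± 0.00, RpS29 at 14.68 ± 0.03 and RpL23 at 14.63 ± 0.01. The others in the first 25 were RpS28b, RpL37A, RpS15, RpS27A, RpS18, RpS7, RpS20, RpL39, RpL36A, RpS26, RpL10Ab, RpL32 and RpS30. The 5 genes of other kinds were Hsc70-4, a constitutive chaperone (14.50 ± 0.01), eEF5, a translation factor (14.50 ± 0.01), tsr, the actin-severing protein cofilin (14.47 ± 0.02), CG15353 (14.53 ± 0.07) and lncRNA:CR33938 (14.43 ± 0.02). At this end of the scale intensity is compressed, and the range over the 3 arrays was at most 0.129 log2 units among these 25. Of 31 cytosolic ribosomal protein genes measured, 26 were high. The exceptions were duplicate copies: RpS5b, RpS19b and RpS28a were intermediate, and RpS10a (4.82) and RpL10Aa (4.48) lay at background.

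Of 569 genes on the 42 lists of regulators, pathways and tissue markers, 35.3% were high, 49.6% intermediate and 15.1% at background, against 20%, 48.8% and 31.2% of all genes. The lists were drawn up from textbook roles, but with earlier results of these data known, and some members were dropped after values were seen. These shares describe well-studied genes and are not particular to any one list.

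All 8 markers fixed for the eye disc (ey, so, eya, dac, gl, ato, elav and chp) exceeded the bound on every control array. Of 11 retinal determination genes, which specify the eye field, 7 were high and 4 intermediate, with a median of 10.81 against 8.14 over all genes. The phosphatase and transcriptional cofactor eya read 12.51, 12.53 and 12.37 on control 1, 2 and 3. Its DNA-binding partner so, a homeobox protein, read 10.77, 10.79 and 10.77, which made it one of the steadiest genes of the list. The Pax genes toy and ey averaged 12.24 ± 0.03 and 9.71 ± 0.20 (SD, n = 3). The nuclear protein dac stood at 11.99, 12.08 and 11.70, lowest on control 3. Optix, a second homeobox gene of the eye field, averaged 10.81 ± 0.14, and the zinc finger gene tsh of the anterior disc 10.18 ± 0.05. The paired nuclear factors danr and dan were high at 12.004 ± 0.08 and 10.96 ± 0.09, the Pax gene eyg was intermediate at 9.18 ± 0.07, and tio, the paralog of tsh, was the lowest member at 6.71 ± 0.09. No gene of the list varied by 1 log2 unit or more between the 3 arrays.

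Genes of the furrow were mostly high. Of 18 measured, 12 were high, 5 intermediate and 1 at background, with a median of 11.79. The HLH protein emc, which restrains proneural factors, read 13.57, 13.51 and 13.54 on control 1, 2 and 3. The repressor hry, expressed ahead of the furrow, averaged 12.70 ± 0.12 and da, the common partner of proneural proteins, 12.07 ± 0.22. The proneural gene of the photoreceptor founder cell, ato, read 11.17, 11.29 and 10.99, above the lowest high gene (10.698) on all 3 arrays. Values of whole discs do not tell which cells this signal came from. The founder-cell genes sens (9.21 ± 0.04) and ro (8.38 ± 0.13) were intermediate. Among targets of Notch in the Enhancer of split complex, E(spl)malpha-BFM (12.75 ± 0.12), E(spl)m3-HLH (12.55 ± 0.12) and E(spl)m4-BFM (12.50 ± 0.03) were high and E(spl)m5-HLH (8.53 ± 0.10) intermediate. At the low end of the list were rn at 7.03 ± 0.05 and dila at 4.85 ± 0.17, the latter at background.

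Regulators of photoreceptor and cone subtypes formed a graded set, with 7 of 16 high, 8 intermediate and 1 at background. The zinc finger gene gl, required in all photoreceptors, read 12.05, 12.03 and 11.97 on the 3 arrays. The ETS repressor aop, which holds cells undifferentiated, was the brightest at 12.90 ± 0.02. Also high were salm (11.39 ± 0.12), the ubiquitin ligase gene sina (11.30 ± 0.05), the homeobox gene B-H2 (11.19 ± 0.04), the zinc finger gene peb (11.14 ± 0.12) and the Runx gene lz (11.03 ± 0.08). Intermediate were phyl (10.47 ± 0.09), B-H1 (10.29 ± 0.07), Lim1 (9.97 ± 0.04), svp (9.67 ± 0.06), pros (9.41 ± 0.23), salr (9.34 ± 0.06), oc (9.03 ± 0.29) and ct (8.04 ± 0.03). The cone cell gene sv read 5.172, 4.996 and 5.445, on both sides of the bound, with a mean of 5.20 that placed it at background.

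Products of early neuronal differentiation exceeded the bound on most arrays. The neuronal RNA-binding protein gene elav read 11.65, 11.41 and 11.65 on control 1, 2 and 3, and chp, which encodes the photoreceptor adhesion protein chaoptin, 10.12, 10.04 and 10.61. Of 15 genes of differentiating neurons 8 were high, among them the adhesion gene Nrg (12.69 ± 0.05), the microtubule regulator stai (12.65 ± 0.08), the synaptic adhesion gene sdk (11.41 ± 0.06) and the amyloid-precursor homolog Appl (11.13 ± 0.12). The sodium pump subunit gene nrv3 (10.67 ± 0.07) and the microtubule-associated futsch (10.31 ± 0.07) fell just short of that class. Synaptic genes were dimmer, with the vesicle gene nSyb at 7.998 ± 0.14 and the active-zone gene brp at 7.84 ± 0.21. The RNA-binding gene fne, a paralog of elav, averaged 6.85 ± 0.10. The secreted ligand gene jeb was the lowest, with 5.16, 4.37 and 6.11, above the bound on control 3 alone.

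The rhodopsin genes and norpA, ninaA and ninaC were not analysed here. Of 11 other phototransduction genes 1 was high, 9 were intermediate and 1 was at background, with a median of 8.26. Arr1, an arrestin that quenches rhodopsin, read 10.83, 10.81 and 10.77. The G protein subunit genes Galphaq and Gbeta76C averaged 9.54 ± 0.18 and 8.24 ± 0.07, the eye protein kinase C gene inaC 8.98 ± 0.14, Arr2 7.25 ± 0.24 and rtp, a gene of the light-sensing rhabdomere, 7.23 ± 0.28. The scaffold gene inaD lay near the bound at 5.67 ± 0.07 and the light-gated channel gene trp below it at 4.77 ± 0.15. The pigment genes w and v were not analysed here, and of the others 6 of 18 were high, 9 intermediate and 3 at background. The vesicle-trafficking pigment genes g (11.15 ± 0.09) and rb (11.14 ± 0.04), together with cl (12.85 ± 0.04), were high, pn (8.51 ± 0.05) was intermediate, and the pigment transporter genes st (6.02 ± 0.19) and bw (4.95 ± 0.10), with se (5.32 ± 0.07), cd (5.14 ± 0.21) and cn (3.72 ± 0.13), sat near or below the bound.

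**Figure D2:**
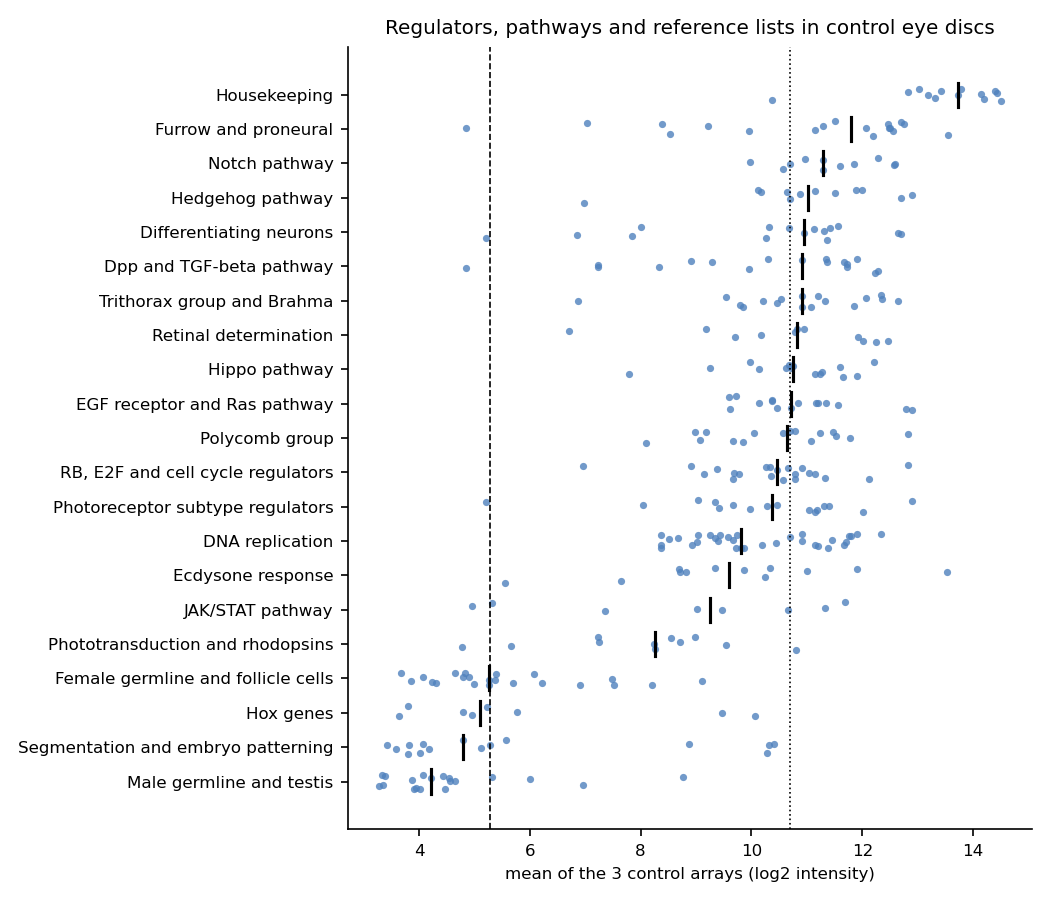
Mean log2 intensity of each measured gene over the 3 control arrays (points, jittered vertically) for 21 lists, with the median of each list as a bar, the background bound of 5.27 dashed and the lowest high gene (10.698) dotted. Lists of eye regulators, signalling pathways and phototransduction have medians between 8.26 and 11.79, whereas the Hox, segmentation and germline lists have medians at or below the bound.

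Several central genes of the signalling lists were not analysed here, among them N, Dl, Ser and Su(H) of the Notch pathway, wg, fz, fz2, dsh, arm and pan of the Wingless pathway, hop of the JAK/STAT pathway and rho, pnt, Raf and rl of the EGF receptor pathway. In the Hedgehog pathway, which drives the furrow, 7 of 12 genes were high and 5 intermediate. The ligand gene hh read 10.74, 10.67 and 10.51, and its release factor disp averaged 10.69 ± 0.05. On the receiving side the signal transducer smo (11.50 ± 0.01), the co-receptor ihog (12.70 ± 0.03), the glypican dlp (11.99 ± 0.08) and the kinesin-like cos (11.88 ± 0.09) were high, as was the transcription factor ci at 12.90 ± 0.01. The exception was the receptor ptc, itself a target of the pathway, with 6.95, 7.01 and 6.95, above the bound but the lowest of the 12. Su(fu) and ttv were intermediate at 10.16 ± 0.06 and 10.11 ± 0.09.

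In the Dpp and TGF-beta pathway 9 of 17 genes were high, 7 intermediate and 1 at background. The ligand gene dpp, expressed in the furrow, read 10.30, 10.32 and 10.29, and gbb, a second ligand, averaged 12.24 ± 0.01. The receptors tkv (12.28 ± 0.01), put (11.90 ± 0.01) and sax (11.68 ± 0.04), the transducer Mad (11.37 ± 0.04), the inhibitory target Dad (11.73 ± 0.05) and the nuclear factor shn (11.73 ± 0.07) were high. Med, the common partner of Mad, gave 7.22 ± 0.05, the extracellular modulator cv-2 7.22 ± 0.05, and tsg lay at background at 4.84 ± 0.15. The 4 Wingless pathway genes measured were the scaffold Axn (11.19 ± 0.01), the feedback inhibitor nkd (11.17 ± 0.06), the ligand gene Wnt6 (9.93 ± 0.02) and the secreted inhibitor Notum (6.21 ± 0.05).

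In the EGF receptor and Ras pathway 8 of 15 genes were high and 7 intermediate. The main ligand spi averaged 12.80 ± 0.03 and its processing chaperone S 10.37 ± 0.08, whereas Krn, a second ligand, gave 9.61 ± 0.17. The receptor Egfr read 10.58, 10.77 and 10.78, close to the boundary of the high class. The adaptor drk (11.34 ± 0.04) and the inhibitor sty (11.56 ± 0.10) were high, and the feedback inhibitors aos (10.36 ± 0.04) and kek1 (9.59 ± 0.08) and the scaffold ksr (9.72 ± 0.16) intermediate. The receptor tyrosine kinase sev, which specifies the last photoreceptor, read 9.79, 9.74 and 9.88, and its ligand boss, made by the founder cell, 7.36, 7.16 and 7.16. Downstream of sev, dos (10.99 ± 0.12) was high and Sos (10.13 ± 0.04) intermediate.

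The Notch list had 9 of 11 genes high and none at background, with a median of 11.29. It included the antagonist numb (12.60 ± 0.02), the fucosyltransferase gene O-fut1 (12.57 ± 0.04), the glycosyltransferase gene fng (12.28 ± 0.05), the gamma-secretase subunit gene pen-2 (10.97 ± 0.01) and the co-repressor H (10.70 ± 0.08), while neur (10.56 ± 0.09) and the co-activator mam (9.98 ± 0.19) were intermediate. Of 8 JAK/STAT genes, the receptor dome (11.33 ± 0.01) and the transcription factor Stat92E (11.70 ± 0.05) were high and the ligands lower. The ligand upd1, made at the posterior margin, read 7.38, 7.21 and 7.51, and upd2 5.33, 5.14 and 5.46, around the bound. The receptor-like et was at background (4.95 ± 0.13). Intermediate were the phosphatase Ptp61F (10.66 ± 0.04), the nuclear factor chinmo (9.47 ± 0.22) and Su(var)2-10 (9.02 ± 0.04).

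Growth control was broadly expressed. Of 15 Hippo genes 9 were high, including the polarity gene crb (12.20 ± 0.03), the kinase genes dco (11.90 ± 0.02) and hpo (11.65 ± 0.03), fj (11.59 ± 0.05) and the effector yki (11.28 ± 0.10). The kinase wts (10.68 ± 0.03), its partner mats (10.62 ± 0.10), jub (10.14 ± 0.06), sav (9.97 ± 0.03), Mer (9.26 ± 0.07) and kibra (7.78 ± 0.04) were intermediate. In planar polarity Vang (12.46 ± 0.03), stan (11.50 ± 0.07) and ds (11.24 ± 0.18) were high and dgo (10.21 ± 0.04) intermediate. In insulin and TOR signalling the kinases Akt (11.96 ± 0.11), S6k (11.92 ± 0.04) and Pdk1 (11.81 ± 0.07) were high. The receptor InR (10.65 ± 0.10), chico (9.86 ± 0.07), the inhibitors gig (10.03 ± 0.09) and Tsc1 (9.83 ± 0.14) and foxo (8.99 ± 0.10) were intermediate, the growth-delay hormone gene Ilp8 stood at 5.32 ± 0.11, and Ilp2, a hormone of brain cells, lay at background (5.06 ± 0.14).

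Among genes that respond to ecdysone, the steroid that times metamorphosis, br was the brightest at 13.53 ± 0.04, and the nuclear receptor genes Hr39 (11.90 ± 0.08) and EcR (10.999 ± 0.15) were also high. The partner receptor usp averaged 10.25 ± 0.04 and MsrA 10.34 ± 0.03. Of the 12 genes 9 read lowest on control 2, against 34.4% of the 8435 genes above the bound on at least 1 control array. Hr3 read 9.001, 8.194 and 9.283 on control 1, 2 and 3. Eip93F, an ecdysone-induced factor, read 5.82, 4.35 and 6.51, below the bound on control 2 alone. Eip78C (8.78, 8.20 and 9.08), Hr4 (7.96, 7.22 and 7.75) and the transporter E23 (9.98, 9.55 and 10.04) had the same low array, while EcR was highest there.

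The genes that the study altered were both intermediate in control discs. Rbf read 9.83, 9.85 and 9.67 on the control arrays and 9.43, 9.51 and 9.31 on the rbf1 arrays. Psc read 9.86, 9.86 and 9.80 on the control arrays and 12.53, 12.49 and 12.50 on the arrays labelled w1118 psc. Neither altered group overlapped the controls for its gene. In a limma fit over all genes with Benjamini-Hochberg adjustment at 0.05, which called 10.2% of genes for rbf1 and 3.8% for w1118 psc, Rbf differed by -0.37 ± 0.10 (log2 difference from control ± SE, adjusted p = 0.0479) and Psc by 2.67 ± 0.06 (adjusted p = 3.12e-07). Rbf no longer passed when control 1, control 2 or any rbf1 array was left out, with an adjusted p of up to 0.145.

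Of 21 RB, E2F and cell cycle regulators 8 were high and 13 intermediate. The chromatin subunit Caf1-55 (12.83 ± 0.13), the cyclin genes CycB (12.12 ± 0.11) and CycE (11.15 ± 0.19), fzy (11.33 ± 0.08) and the E2F genes Dp (10.92 ± 0.07) and E2f2 (10.79 ± 0.07) were high. CycD (10.27 ± 0.08), the cyclin inhibitor rux (9.38 ± 0.05), mip130 (9.14 ± 0.10), the second retinoblastoma gene Rbf2 (8.91 ± 0.18) and the meiotic phosphatase gene twe (6.96 ± 0.23) were intermediate. The DNA replication list had 12 of 33 genes high and 21 intermediate. The sliding clamp gene PCNA read 12.42, 12.43 and 12.15, and the helicase subunit genes Mcm2 and Mcm5 averaged 11.20 ± 0.15 and 10.92 ± 0.20. RPA1 (11.90 ± 0.07), the nucleotide reductase gene RnrL (11.80 ± 0.13), RfC4 (11.75 ± 0.13) and RPA2 (11.70 ± 0.14) were high, and the origin proteins Orc1 (9.03 ± 0.20) and Orc2 (8.37 ± 0.18), the exonuclease tos (8.37 ± 0.26) and PolA2 (8.37 ± 0.14) intermediate. Control 3 had the lowest value for 30 of these 33 genes and for 19 of the 21 cell cycle regulators, against 46.9% of the 8435 genes above the bound on at least 1 array. The differences were small, with a median range of 0.28 log2 units for replication genes and 0.17 for cell cycle regulators, beside 0.17 over all genes.

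The Polycomb group, which maintains silencing, was split evenly between 8 high and 8 intermediate genes. Su(z)12 (11.77 ± 0.06), Scm (11.52 ± 0.02) and phol (11.46 ± 0.03) were high. The gene l(3)73Ah (10.58 ± 0.07), Sce (10.05 ± 0.06), Pc (9.67 ± 0.04), the methyltransferase E(z) (9.18 ± 0.09), esc (9.07 ± 0.15), its paralog escl (8.99 ± 0.20) and jing (8.10 ± 0.16) were intermediate. Of 17 trithorax group and Brahma genes 10 were high, including kis (12.65 ± 0.08), mor (12.36 ± 0.04), brm (12.34 ± 0.04), Bap60 (12.07 ± 0.04), Snr1 (11.85 ± 0.06), osa (11.32 ± 0.05), trx (11.07 ± 0.04) and ash2 (10.91 ± 0.11). The other 7 were intermediate, including kto (9.78 ± 0.05), polybromo (9.55 ± 0.16) and Mnn1 (6.86 ± 0.14).

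Of 8 genes of the Hox complexes none was high, 3 were intermediate and 5 lay at background, 4 of these being zen, zen2, bcd and ftz, which have no homeotic role. Not analysed here were the homeotic genes Abd-B, Ubx, lab and abd-A. The head gene Dfd, expressed in the peripodial layer of this disc, read 10.10, 9.90 and 10.22. Scr read 9.582, 8.816 and 9.998, a 2.27-fold range between control 2 and control 3. The head gene pb lay just above the bound at 5.76 ± 0.17 and the thoracic gene Antp, with 5.40, 4.75 and 5.51, around it. At background were zen (4.96 ± 0.08), bcd (4.80 ± 0.10), ftz (3.79 ± 0.03) and zen2 (3.64 ± 0.09). Each of the 4 Hox genes above the bound on at least 1 array read lowest on control 2 and highest on control 3. Among the 8435 genes of any kind above it, 34.4% read lowest on control 2 and 28.3% highest on control 3. Of 15 segmentation genes 9 were at background, such as hb (3.43 ± 0.21), hkb (3.59 ± 0.12), cad (3.82 ± 0.04), Kr (4.02 ± 0.08), osk (4.07 ± 0.12) and eve (5.12 ± 0.15), with gt at the bound (5.27 ± 0.18). Those reused in imaginal discs were higher, with odd at 10.41 ± 0.12, kni at 10.31 ± 0.16, en at 10.29 ± 0.20 and its paralog inv at 8.87 ± 0.09.

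Antenna and leg regulators fell into higher classes than wing regulators. Of 18 antenna and leg genes 5 were high and 11 intermediate, including bab2 (11.78 ± 0.13), disco-r (11.35 ± 0.02) and Dll, the distal appendage gene, at 10.69, 10.87 and 10.60. The brightest of the 18, danr (12.004), was also counted among the high retinal determination genes, so the 2 lists overlap. The antennal identity gene ss gave 9.29 ± 0.01, al 9.23 ± 0.02, ap 7.22 ± 0.15, C15 7.17 ± 0.05 and cato 6.85 ± 0.08, while the proneural genes amos (4.55 ± 0.14) and tap (4.42 ± 0.33) were at background. None of 7 wing regulators was high. The wing selector vg read 5.71, 5.54 and 5.86, just above the bound, and pdm2 was at background (4.19 ± 0.11), while nub (7.32 ± 0.07), zfh2 (7.54 ± 0.25) and bs (10.05 ± 0.03) were intermediate. Dorsal eye genes were intermediate, with pnr at 10.13 ± 0.08, caup at 10.10 ± 0.09, mirr at 9.80 ± 0.06 and ara at 9.17 ± 0.04, as was slp2 (8.93 ± 0.20).

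Most genes on the lists for the peripodial layer, glia, muscle and blood cells were above the bound. The peripodial marker gene Ance, a peptidase, was among the brightest of any list at 14.28 ± 0.04, with drm (11.19 ± 0.14) and puc (10.91 ± 0.08) also high and grn (9.07 ± 0.16), Doc1 (8.86 ± 0.06) and Doc2 (7.55 ± 0.16) intermediate. Of 15 glial genes 5 were high and 7 intermediate. Gli, a septate junction protein of glia and epithelia, read 12.75, 12.66 and 12.83, and the glial determinant repo 9.33, 9.39 and 9.33. The glutamine synthetase Gs2 (12.23 ± 0.09), nrv2 (11.67 ± 0.08), loco (11.28 ± 0.02) and the blood-brain barrier receptor moody (10.93 ± 0.17) were high, bdl (8.80 ± 0.13), htl (8.40 ± 0.03) and gcm (6.01 ± 0.18) intermediate, and the astrocyte gene alrm (4.23 ± 0.29), rumpel (4.34 ± 0.18) and gcm2 (3.99 ± 0.14) at background. Muscle and adepithelial markers had 10 of 18 genes high, led by Mlc1 (13.43 ± 0.39), TpnC73F (13.06 ± 0.07) and Mlp60A (12.86 ± 0.23). The muscle precursor gene twi averaged 8.04 ± 0.19 and zfh1 9.39 ± 0.21, and the flight muscle genes Act88F (5.46 ± 0.05) and TpnC41C (3.83 ± 0.13) lay near or below the bound. Blood cell genes were also clear of it. The crystal cell phenoloxidases PPO2 and PPO1 read 12.06, 12.43 and 11.85 and 11.50, 11.74 and 11.28, and the plasmatocyte gene Hml 9.76, 10.25 and 10.36.

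Markers of several other tissues were often near or below the bound, where a low level and none cannot be told apart. Of 24 brain and neuroblast genes 11 were at background, including the tyrosine hydroxylase ple (3.59 ± 0.08), bsh (3.73 ± 0.15), Gad1 (3.83 ± 0.18) and the neuroblast gene wor (5.17 ± 0.47). The neuroblast genes ase (6.83 ± 0.41), mira (7.35 ± 0.33) and insc (8.20 ± 0.26) were intermediate, and dpn (10.55 ± 0.05), SoxN (10.47 ± 0.17), sc (9.98 ± 0.07) and the epithelial factor grh (13.04 ± 0.01) are not confined to neuroblasts. In the male germline list 15 of 19 genes lay at background, among them ProtA (3.28 ± 0.06), dj (3.33 ± 0.07), can (3.34 ± 0.06), ProtB (3.38 ± 0.13), aly (3.88 ± 0.11), sa (3.95 ± 0.15), Mst87F (4.02 ± 0.17) and tomb (4.65 ± 0.03). The exceptions were mia (8.76 ± 0.16), twe, bam (6.002 ± 0.24) and Mst98Ca (5.32 ± 0.13). In the ovarian list 12 of 22 were at background, with otu (3.67 ± 0.09), vas (3.86 ± 0.12), zpg (4.23 ± 0.09), Cp19 (4.31 ± 0.12), piwi (4.83 ± 0.20) and aub (5.27 ± 0.16) at or under the bound, and vret (9.11 ± 0.07), spn-E (8.20 ± 0.11), grk (7.52 ± 0.12) and Cp36 (5.70 ± 0.14) above it. Of 15 gut genes 9 were at background, including the protease genes Jon25Bi (4.22 ± 0.08), Jon65Ai (4.64 ± 0.18) and alphaTry (4.90 ± 0.03), mex1 (3.99 ± 0.21) and Mal-A2 (3.96 ± 0.10). The trypsin betaTry (5.55 ± 0.14), Jon66Ci (6.03 ± 0.05) and Jon74E (5.42 ± 0.08) lay a little above the bound, and LManII (10.002 ± 0.22) was the highest. Of tracheal and cuticular genes the chitin-modifying genes serp (12.85 ± 0.14) and verm (12.23 ± 0.22), the chitin synthase kkv (12.62 ± 0.01) and knk (11.25 ± 0.09) were high, the tracheal receptor btl intermediate (7.30 ± 0.08), and the cuticle genes Edg84A (4.75 ± 0.09), Edg78E (4.62 ± 0.05) and Cpr64Aa (4.54 ± 0.16) at background.

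Epithelial, stress and immune genes completed the picture. Of 20 epithelial and adhesion genes 13 were high, including Moe (13.61 ± 0.03), rst (12.72 ± 0.02) and sdt (11.13 ± 0.04), with cno (9.51 ± 0.13) and the cadherin shg (9.42 ± 0.10) intermediate and sns (5.07 ± 0.10) and fred (4.51 ± 0.05) at background. The small chaperone Hsp27 averaged 14.25 ± 0.05 and Hsp26 12.65 ± 0.26. The caspase Dronc was high (11.24 ± 0.17), the kinase hep (9.98 ± 0.04), the ligand egr (9.97 ± 0.09) and p53 (9.93 ± 0.05) were intermediate, the death genes skl (5.67 ± 0.44) and grim (3.65 ± 0.13) lay near or below the bound, and Corp stood at 5.65 ± 0.40. Of the immune genes the factor Rel was high (10.93 ± 0.03) and dl intermediate (9.98 ± 0.03), whereas the antimicrobial peptide genes Drs (6.84 ± 0.40), AttD (5.49 ± 0.36), Mtk (5.04 ± 0.40) and DptB (4.83 ± 0.15) were low. Housekeeping genes were high in 12 of 13 cases, from betaTub56D (14.39 ± 0.02), eIF4A (14.20 ± 0.01) and sesB (14.14 ± 0.05) to Gapdh1 (13.18 ± 0.33), eIF4E1 (13.02 ± 0.01) and Rpt3 (12.83 ± 0.09), with the basal factor Tbp intermediate (10.37 ± 0.06).

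Most genes varied little between control discs. The range over the 3 arrays had a median of 0.167 log2 units and was under 0.5 for 11145 genes (93.0%). A range of 1 or more, which is 2-fold, was reached by 256 genes, and 253 of these were above the bound on at least 1 control array. They numbered 21 high genes, 214 intermediate genes and 18 with a mean at background. The count depended on which arrays were compared, with 195 genes at least 1 unit apart between control 2 and control 3, 166 between control 1 and control 3 and 97 between control 1 and control 2. The 3 arrays labelled w1118 psc had 184 such genes and the 3 rbf1 arrays 152. Of the 253, 113 (44.7%) also varied among the w1118 psc arrays, where they were 61.4% of the variable genes, and 103 (40.7%) among the rbf1 arrays, where they were 67.8%. In neither altered group did 118 vary.

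Of the 42 lists, 32 held no variable gene. The other 10 were those of the salivary gland (11 of 15 genes), ring gland (5 of 12), fat body (4 of 14), ecdysone response (2 of 12), antimicrobial peptides (2 of 13), and Hox genes, haemocytes, muscle, gut and differentiating neurons with 1 each. The ring gland entry phm matched no single gene and was not counted, while phtm, not counted in that list, had a 2.05-fold range. No retinal determination, furrow, photoreceptor subtype, pathway, cell cycle, Polycomb or trithorax gene reached a 2-fold range.

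**Figure D3:**
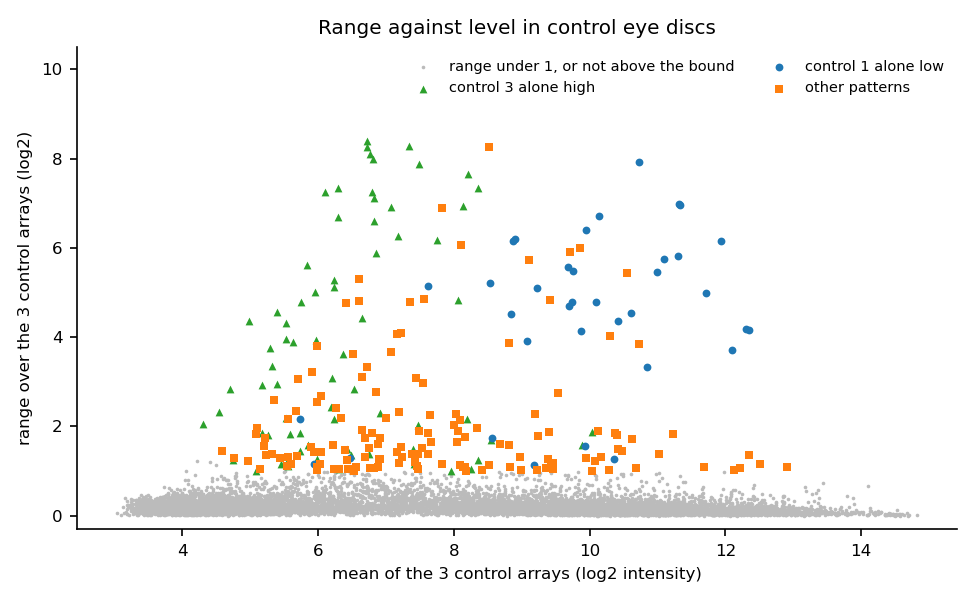
Range over the 3 control arrays (log2 units) against their mean log2 intensity for 11983 genes, with 253 variable genes coloured by pattern. Green triangles are 72 genes high on control 3 alone, blue circles 36 genes low on control 1 alone and orange squares the other patterns, while grey points stay under a range of 1 or never exceed the bound.

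The 253 genes were sorted by which array stood apart, taking an array as apart when its gap to the nearest other array was at least 0.75 of the range, a rule chosen after the values were seen. Control 3 alone was high for 72 genes, control 1 alone low for 36, control 3 alone low for 14, control 2 alone high for 12 and alone low for 9, control 1 alone high for 6, and 104 fitted none of these. The widest ranges belonged to the first 2 patterns: of 47 genes with a range of 5 or more, which is 32-fold, 23 were high on control 3 alone and 16 low on control 1 alone. Of the 25 genes with the widest range 17 had the former pattern and 6 the latter.

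Of the 72 genes high on control 3 alone, 49 are known only by a CG number. Among the named ones are both Peritrophin-15 genes, which encode proteins of the chitin-based sheath that lines the larval midgut, and the mucin genes Muc96D and Muc26B. CG6933 had the widest range of all, with 3.91, 3.95 and 12.31 on control 1, 2 and 3, a span of 8.40 log2 units from background into the high range. Peritrophin-15b read 4.46, 4.81 and 12.74, and Peritrophin-15a 5.66, 5.65 and 13.31. The mucin gene Muc96D read 3.89, 4.14 and 12.14, and Kaz-m1, a protease inhibitor gene, 4.55, 4.77 and 11.16. The other genes of this pattern in the first 25 were CG12934 (12.06 on control 3), CG7017 (12.11), CG34282 (12.67), CG17826 (11.19), CG14300 (13.19), CG32302 (11.60), CG11470 (10.94), CG5084 (11.54), CG7567 (12.73), CG10725 (11.62), CG43896 (10.70) and CG7714 (11.32), all at background or within 1 unit above the bound on both other control arrays. Of 8 obst genes, which encode chitin-binding proteins, 5 varied: obst-J read 4.0, 4.0 and 9.6 and obst-G 3.9, 3.9 and 8.4, and obst-F, obst-H and obst-I were likewise higher on control 3.

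This block was a property of a single array among the 9. Of the 72 genes 66 read higher on control 3 than on any of the other 8 arrays, 54 of them by 1 log2 unit or more, and 62 varied in neither altered group. For the 20 with the widest range the lowest value on control 3 was 9.58 and the highest on any other array 6.203. On all 6 arrays of the altered groups 39 of the 72 were at or below the bound. Of 13 Jonah protease genes, 7 of which lay at background, 12 had a range under 1, while Jon65Aiv read 5.1, 5.3 and 9.5 and the lysozyme gene LysP 5.3, 5.8 and 7.5. The summed linear intensity of the 15 gut genes was 1642, 1780 and 1830 on control 1, 2 and 3, 1525 to 1629 on the w1118 psc arrays and 1419 to 1565 on the rbf1 arrays, so control 3 had the highest sum of the 9. The brightest gene, LManII (10.002), weighs most in that sum. The mean log2 level of the same genes was 5.43, 5.45 and 5.41, lowest on control 3 among the controls. Of the 7 gut genes above the bound on at least 1 control array 5 read highest on control 2 and 2 on control 3. Among the 8435 genes of any kind above it, 30.6% read highest on control 2 and 28.3% on control 3. The part of gut or other tissue in this block was not tested.

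**Figure D4:**
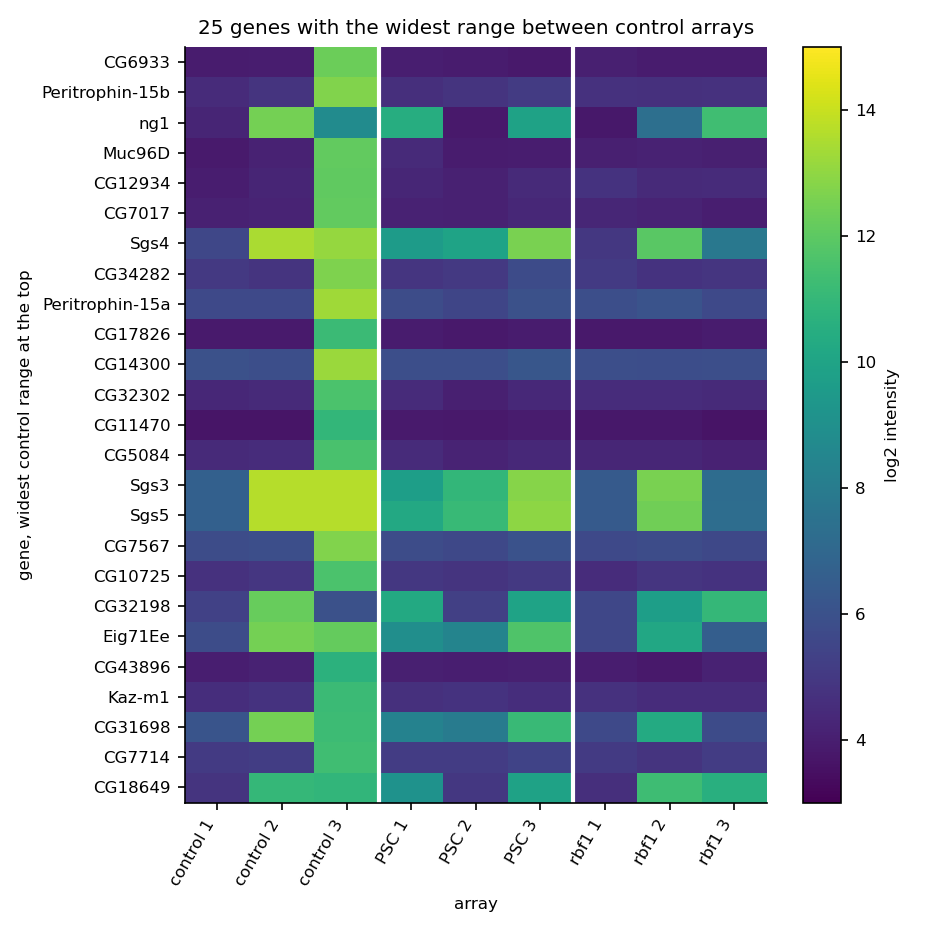
Heat map of the log2 intensity of the 25 genes with the widest range between control arrays (rows, widest at the top) on all 9 arrays (columns, white lines separate the groups). The rows high on control 3 are dark on the other 8 arrays, whereas the glue gene rows are dark on control 1 and change from array to array in the altered groups too.

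The genes low on control 1 alone were led by those of the salivary gland, which makes the glue that fixes the puparium at the end of larval life. Sgs3 read 6.67, 13.65 and 13.64 on control 1, 2 and 3, a 126-fold range. Sgs4 read 5.56, 13.48 and 13.12, and Sgs5 6.70, 13.66 and 13.64. Sgs7 read 7.87, 13.94 and 14.01, Sgs8 7.39, 12.77 and 13.15, and Sgs1 4.92, 11.08 and 10.64, so Sgs1 was under the bound on control 1 and the others above it on every control array. Eig71Ee, CG31698 and CG18649 had the same pattern, with 5.77, 6.11 and 4.80 on control 1 and between 10.90 and 12.51 on the others. Of the 14 salivary gland genes above the bound on at least 1 array 12 read lowest on control 1. Among the 8435 genes of any kind above it, 18.7% did so. The class of the glue genes thus rested on control 2 and control 3.

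The glue genes varied in every group. Among the 36 genes low on control 1 alone 31 had a range of 1 or more on the w1118 psc arrays and 33 on the rbf1 arrays. Sgs3 read 9.74, 10.94 and 12.84 on w1118 psc arrays 1, 2 and 3 and 6.38, 12.58 and 7.23 on rbf1 arrays 1, 2 and 3, so both altered groups overlapped the controls. The summed linear intensity of the 15 salivary gland genes was 2205, 89430 and 75120 on control 1, 2 and 3, between 11830 and 54260 on the w1118 psc arrays and between 1959 and 36570 on the rbf1 arrays. The new-glue gene ng1, at 4.25, 12.51 and 8.79, and CG32198, at 5.31, 12.21 and 5.96, were highest on control 2 instead, and ng2 read 5.14, 9.98 and 7.58. The part of attached gland tissue or of larval age in these ranges was not tested.

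Control 2 had the highest levels of ring gland genes, the gland that makes ecdysone and juvenile hormone. Of 11 such genes above the bound on at least 1 array 7 read highest on control 2 and 7 lowest on control 3. Among the 8435 genes of any kind above it, 30.6% read highest on control 2 and 46.9% lowest on control 3. The steroid enzyme genes spok (10.59, 11.49 and 9.78), sad (9.36, 9.89 and 8.81) and nvd (6.84, 7.71 and 6.11) kept the order control 2, control 1, control 3. So did Akh, which encodes adipokinetic hormone (7.35, 8.95 and 6.68), and jhamt, a late enzyme of juvenile hormone synthesis (6.40, 7.72 and 5.97). The enzyme gene dib read 6.83, 7.30 and 6.81, whereas shd (5.98 ± 0.13) and spo (5.85 ± 0.13) varied little, sro averaged 8.47 ± 0.22, tor lay at background (4.50 ± 0.15) and Kr-h1, a juvenile hormone response gene not limited to this gland, averaged 11.07 ± 0.02. The list summed to 5384, 7660 and 4396 linear intensity units on control 1, 2 and 3, to between 8120 and 16870 on the w1118 psc arrays and to between 8673 and 14730 on the rbf1 arrays, so the controls lay below both altered groups. Of its 12 genes 1 passed as higher in each altered group. Among all 11983 genes 756 passed as higher in rbf1 discs and 170 in w1118 psc discs. A count of 1 gene was not tested against those numbers. The ring gland gene higher in both was dib. It differed by 1.18 ± 0.30 log2 units (limma adjusted p = 0.0435) in rbf1 discs and by 1.65 ± 0.30 (limma adjusted p = 0.0218) in w1118 psc discs. The brain hormone gene Ptth passed as lower in rbf1 discs, beside 470 of all genes. The call of dib for rbf1 was lost when any 1 of the control or rbf1 arrays was left out (limma adjusted p up to 0.136), and with arrays centred on their medians (0.0522). For w1118 psc it was lost when control 1, control 3 or w1118 psc array 3 was left out (up to 0.0765), and with only the 2 groups fitted (0.0724). The part of attached ring gland in these values was not tested.

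**Figure D5:**
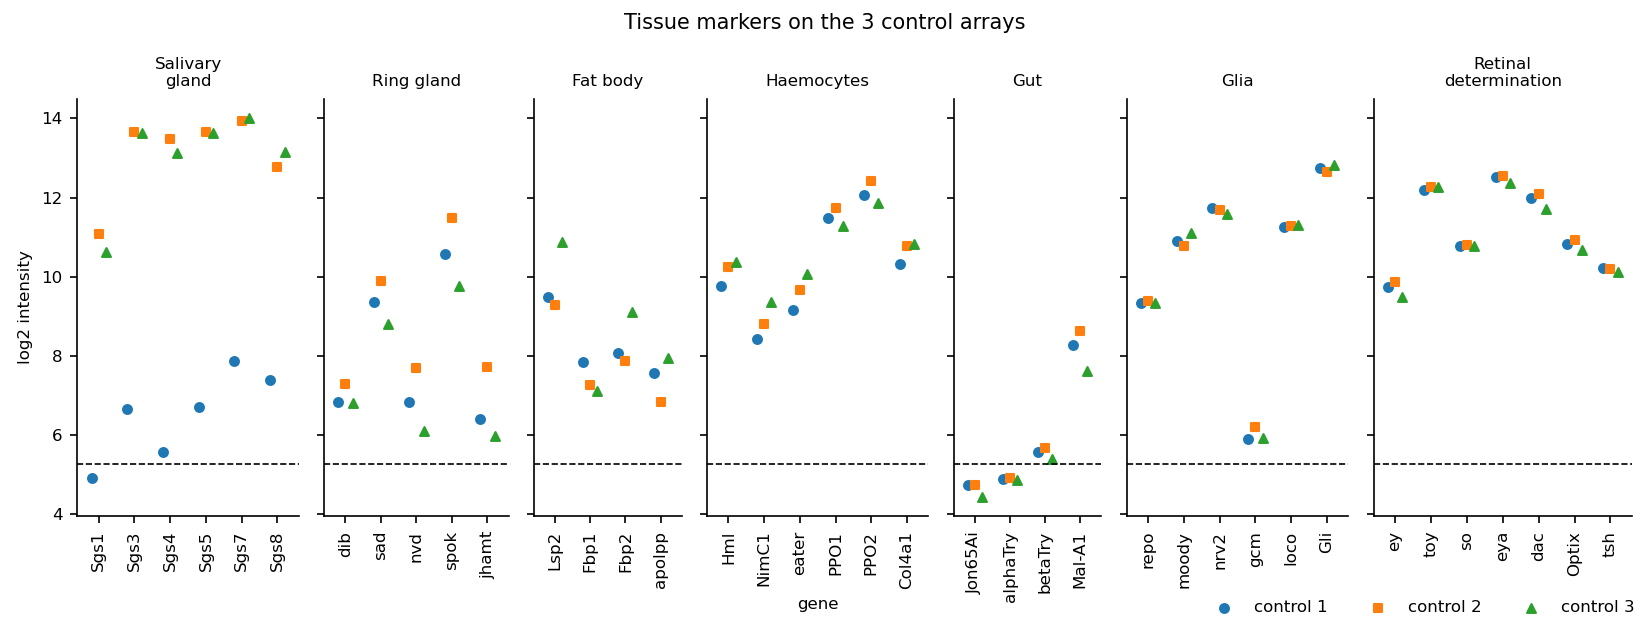
Log2 intensity of tissue marker genes on control 1 (blue circles), control 2 (orange squares) and control 3 (green triangles), with retinal determination genes at the right for comparison and the background bound of 5.27 dashed. Glue genes are low on control 1 and ring gland genes highest on control 2, while glial and retinal determination genes coincide within 0.5 log2 units on the 3 arrays.

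Fewer fat body and blood cell genes than ring gland genes reached a 2-fold range. Their median ranges were 0.42 and 0.50 log2 units, beside 0.46 for ring gland genes. Lsp2, a larval storage protein gene, read 9.49, 9.29 and 10.89, and Fbp2 8.08, 7.88 and 9.12, both highest on control 3, while apolpp read 7.57, 6.85 and 7.96 and Fbp1, without a 2-fold range, 7.85, 7.27 and 7.12. The lipid enzymes Desat1 (12.31 ± 0.13) and FASN1 (11.13 ± 0.10) and Cyp4e2 (10.93 ± 0.03), which other tissues also use, were high and steady, Apoltp stood at 5.45 ± 0.24, and the yolk protein genes Yp1 (4.10 ± 0.18) and Yp3 (5.03 ± 0.17) were at background. Of 18 haemocyte genes 12 read highest on control 3 and 11 lowest on control 1. Among the 8435 genes above the bound on at least 1 control array these shares were 28.3% and 18.7%. The phagocytic receptor genes eater (9.17, 9.67 and 10.08), NimC1 (8.42, 8.82 and 9.37) and Sr-CI (7.81, 8.07 and 8.86) rose from control 1 to control 3. Sr-CI alone of the list reached a 2-fold range. The phenoloxidase genes PPO2 and PPO1 instead read highest on control 2 and lowest on control 3. Col4a1, a basement membrane collagen, averaged 10.64 ± 0.27, NimC2 6.496 ± 0.29 and NimB5 6.45 ± 0.13, while msn (11.27 ± 0.04) and atilla (10.99 ± 0.14) were steady. The antimicrobial peptide gene CecB read 6.96, 7.92 and 9.23 and Def 7.42, 6.51 and 6.35, so the 2 peptides had opposite orders. The digestive maltase gene Mal-A1 read 8.28, 8.63 and 7.62.

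The altered discs were compared with the control discs by level class. The comparisons share the 3 control arrays, and nothing but the label says that replicates came from separate animals, so p-values measure the spread between these samples. In the limma fit over all 11983 genes 1226 (10.2%) differed between rbf1 and control discs, 756 higher and 470 lower in rbf1 (559 higher and 603 lower with each array centred on its median), and 455 (3.8%) between w1118 psc and control discs, 170 higher and 285 lower. The share that passed was 9.52% of high, 15.2% of intermediate and 2.84% of background genes for rbf1, and 3.42%, 5.67% and 1.10% for w1118 psc. Of the genes at background in control discs 55 were higher and 51 lower in rbf1, and 29 of the 55 had a mean above the bound there. In w1118 psc discs 28 were higher, 18 of them above the bound, and 13 lower. Of the genes that passed as lower, 32 had a mean above the bound in control discs and at or below it in rbf1 discs, and 22 did so in w1118 psc discs.

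Of the DNA replication genes 31 of 33 were higher in rbf1 discs and none lower, with PCNA at 13.44, 13.32 and 13.37 against 12.42, 12.43 and 12.15 in control discs, a difference of 1.04 ± 0.10 that exceeded the 0.28 by which control 3 lay below control 2. Among retinal determination genes toy and dan were lower and tsh higher in rbf1 discs, tio was lower in w1118 psc discs, and the other 7 passed in neither. The call of toy was lost without rbf1 array 2 or with the mean of all its probe sets (adjusted p up to 0.155). That of dan was lost without control 1, control 2 or any rbf1 array, and with only the 2 groups fitted (up to 0.114). Of 18 haemocyte genes 3 were lower in rbf1 discs and none higher, and 1 (atilla) was lower in w1118 psc discs. Of 14 fat body genes 5 were lower and 1 higher in rbf1 discs, and 1 was lower in w1118 psc discs. Of 15 tracheal and cuticular genes 6 were lower and none higher in rbf1 discs, and 2 were lower in w1118 psc discs. These list counts stand beside 756 higher and 470 lower of all 11983 genes in rbf1 discs. In w1118 psc discs 170 of all genes were higher and 285 lower. Among haemocyte genes in rbf1 discs, NimC2 differed by -1.08 ± 0.16 (limma adjusted p = 0.0038), and the phenoloxidase genes PPO1 and PPO2 by -1.25 ± 0.28 and -1.10 ± 0.28 (limma adjusted p = 0.0251 and 0.0448). The calls of PPO1 and PPO2 were lost without control 1, control 2, rbf1 array 1 or rbf1 array 2, and that of PPO2 also without control 3 or with only the 2 groups fitted (adjusted p up to 0.0814 and 0.129). The summed haemocyte intensity was 22370 to 26630 on control, 18140 to 21840 on rbf1 and 24820 to 31540 on w1118 psc arrays. That sum includes NimC2, PPO1 and PPO2, with PPO2 the brightest gene of the list, so it is not a measure separate from these calls. The part of adhering blood cells in these values was not tested.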

How the data were processed

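RNA of whole eye discs was measured on 9 Affymetrix Drosophila Genome 2.0 arrays, 3 per group. The deposited values are log2 intensities that the authors obtained with RMA, per the submitters' processing notes; its version and background settings are not given in the sources used here. RMA fits all arrays together, removes background and equalizes the distributions of the arrays, so a change shared by most genes cannot be seen and low differences are compressed. An array has no read depth, and the number of arrays limits the precision.

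Probe sets were named through the platform annotation updated by gene identifier to RefSeq symbols. Of 18952 probe sets 183 controls, 402 with several genes and 4720 with none were left out, 13647 named 1 gene, and 11894 of 11983 identifiers matched. The brightest probe set stood for each of 1094 genes with several, of which 434 had their dimmest at or below the bound, with a median gap of 1.89 log2 units.

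Levels, ranges and list counts were computed with Python 3.11.15, pandas 2.3.3 and numpy 2.4.6, and groups were compared with limma 3.58.1 in R 4.3.3 (group means, 9 arrays, Benjamini-Hochberg over 11983 genes, threshold 0.05), tested on simulated data. Genes were named as the first 25 by level, the first 25 by range, the key genes of each list with its 3 highest and 3 lowest others, Rbf, Psc and the genes next to the thresholds. The members and lists were chosen with earlier results of these data known. Some list members were dropped for their role after values were seen, and families picked by symbol (obst, Jonah) and further genes named for their range or call were chosen after values were seen. Of 791 list entries 190 were not analysed here. Promoter motifs were not analysed here.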

Additional observations from a re-analysis of the deposited data

Results flagged for a closer look

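Signal also lay in probe sets outside the described genes. Of 4720 probe sets with no gene name, 1204 (25.5%) exceeded the background bound on all 3 control arrays, 395 reached the level of the high class and 20 had a range of 1 log2 unit or more. Of 402 probe sets that name several genes, 253 (62.9%) exceeded the bound on all 3 arrays, 58 reached the high class and 14 had such a range. Both were picked out because they carry signal that no comparison used. With 3 arrays per group no array was tested as an outlier.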

How the results depend on the processing

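The number of genes at background, 3734, lay between 3286 and 5191 and that of intermediate genes, 5853, between 4396 and 6301 over the bounds at the 90th and 99th percentile of the receptor genes (4.96 and 6.99), the mean of all probe sets, centred arrays and each control array left out. At those 2 bounds the members of lists at background numbered 74 and 146 instead of 91, and 7 and 20 of 42 lists moved by over 1.5 times. Genes with a 2-fold range, 256, fell to 97 without control 3 and reached 195 without control 1, and a range over 2 arrays is smaller by construction. With 1 array left out, the calls for rbf1 (1226) lay between 787 and 969, and those for w1118 psc (455) between 250 and 385, fewer arrays being fitted. With only the 2 groups compared in the fit the calls for w1118 psc were 275. The replicate block gave 1306 and 426 calls, and the PPO1 and PPO2 calls were lost under it. Samples of the same number correlated between -0.438 and 0.588 in their deviations from group means, so the numbers are not taken as pairs. DNA replication genes higher in rbf1 numbered 31 or 32 under each of the 11 alternatives run.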

Other observations

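Other gene families, picked by symbol after values were seen, separated by level. All 26 proteasome genes were high, from 12.05 (Rpn1) to 13.51 (Prosbeta3), and of 69 mitochondrial ribosomal protein genes 31 were high and 38 intermediate, from mRpL11 at 9.72 to mRpL33 at 11.88. Of 81 cytochrome P450 genes 2 were high, 41 intermediate and 38 at background, with Cyp4p2 the highest at 11.51. Of 66 Cpr cuticle protein genes 3 were high and 26 at background, and Cpr49Ac led them at 13.43, 13.05 and 13.62 on control 1, 2 and 3. None of 24 Osiris genes was high and 14 lay at background. Odorant binding proteins, small secreted carriers, numbered 47, of which 8 were high, 22 intermediate and 17 at background, and Obp56d was the highest at 13.92.

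Of the 112 receptor genes that set the bound, 6 lay above it, a number fixed by the choice of their 95th percentile. The highest were Gr61a at 7.63, 7.75 and 7.81 and Or43b at 7.13, 7.18 and 7.22 on control 1, 2 and 3. Genes known only by a CG number made up 22.3% of high, 41.9% of intermediate and 59.5% of background genes.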
